A study of Rattus norvegicus with 12 samples.

Results

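Lysosomal proteases and phagocyte lysosome genes were followed in the contused spinal cord of SD and AN rats as a set of 9 genes. The set holds the cathepsins Ctsb, Ctsd, Ctss, Ctsk and Ctsz, the glycoprotein Gpnmb, the galectin Lgals3, the lysosomal membrane protein Lamp2 and the tetraspanin Cd63. The genes were listed by name, with earlier results of these data known, and 8 of the 9 were matched among the 17423 identifiers listed. Ctsz was not analysed here. The tables list genes by RGD (Rat Genome Database) identifier without symbols, so apart from Ctsb, whose identifier was known, the members were placed by the order, span and distance of neighbouring genes in a later rat gene table. Tested on genes of known name, placing by order was right for 97.0% of 1162 and placing by distance for 94.1% of 119, so a member's name can be wrong.

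RNA from 12 female rats was sequenced, 3 from each of 4 groups. All rats received a moderate contusion of 200 kdyn at an age of 16 to 18 weeks, so the rats of the chronic phase were older when the tissue was taken, and phase and age cannot be told apart. A 1-mm cord segment through the lesion was taken after perfusion with saline, and no uninjured cord is part of the comparison. The acute phase is 1 week and the chronic phase 8 weeks after injury. SD rats (Sprague-Dawley, Hsd:SD) are immunocompetent, while AN rats (athymic nude, Hsd:RH-rnu/rnu) carry a homozygous mutation that leaves them without a functional thymus and with few mature T cells. AN and SD rats are separate stocks, so the missing thymus and the other differences between the stocks cannot be told apart.

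Lysosomes are acidic compartments in which cells break down what they take up, and macrophages filling a cord lesion clear myelin and cell debris through them. Cathepsins are their main proteases: Ctsb, Ctss and Ctsk are cysteine proteases of the papain type and Ctsd is an aspartic protease. Ctss also acts in antigen presentation, and Ctsk is best known as the collagen-degrading protease of osteoclasts. Gpnmb and Lgals3 are high in phagocytes loaded with lipid or debris, and Lamp2 and Cd63 are proteins of the lysosome membrane and of late endosomes.

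The measurement is FPKM, a fragment count scaled to transcript length and sequencing depth, given by the authors as 1 value for each group of 3 rats. The authors ran Cufflinks with quartile normalization, so the values need not be shares of the total reads. Values per rat were not analysed here. The authors' own tests were not used, so no spread between rats, standard error or test is given here, and every comparison below is a description of 4 pooled values, with the distribution over all genes as its background. The log2FC divides the AN by the SD value on a log2 scale, without a pseudocount. A gene was counted as higher or lower where the groups differed at least 1.5-fold and both had an FPKM of at least 1. The reads behind each gene are unknown. Each phase has its own normalization, so levels are set across phases as a description only. Estimation failed for Ctsb and Ctsd in acute AN rats, where both are listed at 0 with a status that marks a failed estimate, which is not a measured absence. In acute SD rats they had the highest levels of the members, at 5681 and 4002 FPKM. The acute counts, sums and shares below therefore leave out the most abundant members. In a bulk segment, fewer cells of a type and less RNA per cell cannot be told apart.

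The tissue and the strains were checked against their defining markers. Summed FPKM of 7 neuron markers at 1 week was 1017 (SD) and 143 (AN), and at 8 weeks 913 (SD) and 271 (AN). The 7 oligodendrocyte markers summed to 2759.9 (SD) and 1416 (AN) at 1 week and to 2636 (SD) and 2675 (AN) at 8 weeks. Cd3g, a T cell receptor subunit, stood at 2.74 (SD) and 0.531 (AN) FPKM at 1 week and at 2.58 (SD) and 1.40 (AN) at 8 weeks. The coreceptor genes Cd8a and Cd8b were more abundant and went the other way at 1 week, at 76.0 (SD) and 199 (AN) and at 32.5 (SD) and 42.9 (AN) FPKM. Cd2 also did at 1 week, at 1.21 (SD) and 1.72 (AN). At 8 weeks AN rats stood above SD rats for Cd2 (1.88 and 3.81 FPKM in SD and AN), Cd3e (0.837 and 0.962) and Cd247 (0.664 and 0.736). Cd3d, Cd5, Cd8a and Cd8b were then lower in AN rats. Apoe, which carries lipid, could not be estimated in any group, and Gfap, the astrocyte filament, not in chronic SD rats.

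The start regions of Gpnmb, Ctsk and Ctsd are shown because Gpnmb and Ctsk were the members at least 1.5-fold higher in chronic AN rats, and Ctsd carries the sequence element that lysosomal genes are known for. This element is the E-box that factors of the TFEB and MITF family bind. The windows are RefSeq sequence of GRCr8, a later build than the tables' RN4, from 250 bases before to 50 bases after the gene start, written 5′ to 3′ on the gene's strand. Capitals mark CACGTG, which reads the same on both strands, and CATGTG or its reverse complement CACATG.
Gpnmb, chr4:79340878-79341177, plus strand: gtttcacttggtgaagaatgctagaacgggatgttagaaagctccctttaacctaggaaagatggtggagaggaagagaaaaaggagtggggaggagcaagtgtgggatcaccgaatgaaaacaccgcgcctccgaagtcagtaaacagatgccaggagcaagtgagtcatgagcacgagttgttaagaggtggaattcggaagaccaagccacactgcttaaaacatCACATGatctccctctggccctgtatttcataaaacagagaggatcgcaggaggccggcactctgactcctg
Ctsk, chr2:185747298-185747597, plus strand: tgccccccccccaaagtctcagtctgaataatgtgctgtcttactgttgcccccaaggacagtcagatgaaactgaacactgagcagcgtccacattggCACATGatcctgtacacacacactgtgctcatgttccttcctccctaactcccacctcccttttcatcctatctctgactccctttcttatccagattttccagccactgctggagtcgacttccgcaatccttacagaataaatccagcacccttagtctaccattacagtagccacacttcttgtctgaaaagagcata
Ctsd, chr1:206968772-206969071, minus strand: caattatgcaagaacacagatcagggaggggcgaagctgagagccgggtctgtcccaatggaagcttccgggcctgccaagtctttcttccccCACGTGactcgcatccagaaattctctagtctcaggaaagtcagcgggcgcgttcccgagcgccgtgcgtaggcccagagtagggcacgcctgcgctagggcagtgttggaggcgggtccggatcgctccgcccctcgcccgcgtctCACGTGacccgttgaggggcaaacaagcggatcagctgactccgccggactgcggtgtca
The table held windows for 6 of the 8 matched members, and Ctsb and Lgals3 had none. CACGTG stood in 2 of the 6 windows, those of Ctsd and Cd63, against 6.42% of all 33469 windows. The Ctsd window held it 2 times, at positions -157 and -10 from the start, and the copy at -10 lies within the longer TCACGTGA, which 0.777% of all windows hold. CATGTG in either orientation was chosen after the sequences were seen, so the 14.0% of all windows that hold it cannot serve as a test. It stood in 4 of the 6 (Gpnmb, Ctsk, Ctss and Cd63), at -22 in Gpnmb and -151 in Ctsk. In Ctss it lay at position 5 after the start and in Cd63 at -116. The Lamp2 window held neither. A match is a description of the letters and no evidence that a factor binds there.

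The members were among the most abundant transcripts of the lesion. The 6 members estimated in every group summed to 10058 (SD) and 15493 (AN) FPKM at 1 week, and to 8316 (SD) and 10384 (AN) at 8 weeks. This was 1.68% and 2.38% of the summed FPKM of all genes at 1 week and 1.37% and 1.64% at 8 weeks. Genes with a failed estimate in any group, Ctsb and Ctsd among them, were left out of these totals. The share was larger in AN than in SD rats both times. Of these 6, 4 (Gpnmb, Lgals3, Cd63 and Ctss) were within the 50 highest genes of every group, where the median of genes above 0 was between 10.5 and 10.96 FPKM. Lamp2 and Ctsk lay between 206 and 468 FPKM.

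**Figure D1:**
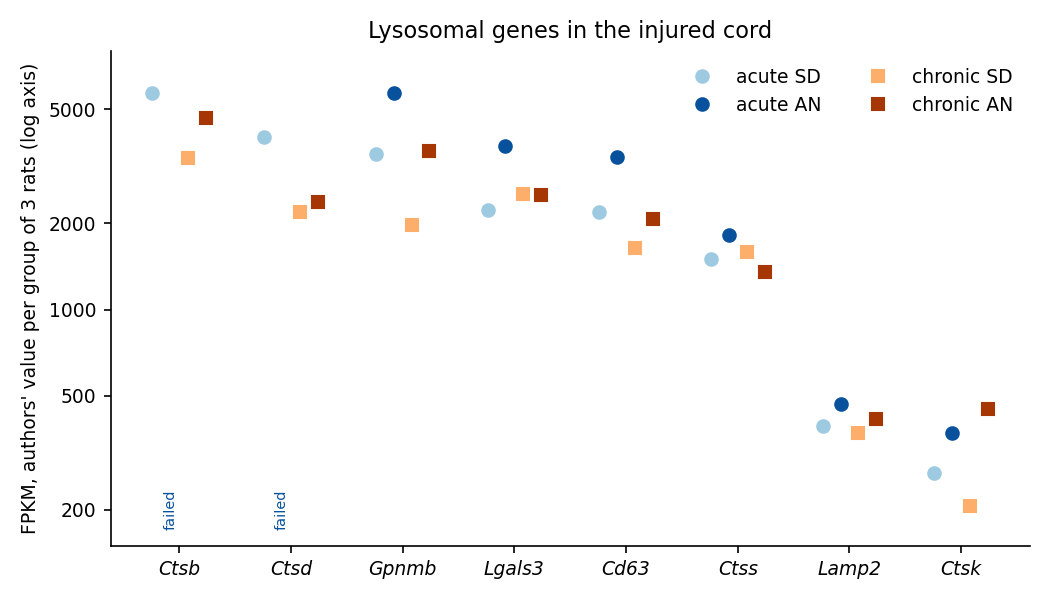
FPKM of the 8 matched genes (log axis) in each of the 4 groups, 1 point per group of 3 rats and no error bars because values per rat were not analysed. Gpnmb, Lgals3, Cd63, Ctss and Lamp2 have their highest point in acute AN rats and Ctsk in chronic AN rats; Ctsb and Ctsd have no acute AN point because the estimate failed.

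In the acute phase the comparison asks how the lesion differed between the strains at the time when T cells enter it. All 6 members with both estimates were above SD levels in AN rats, with a median log2FC of 0.55 (range 0.25 to 0.74), while the median of all 10594 genes was 0.02 (quartiles -0.27 and 0.24). Of the 6, 3 were at least 1.5-fold higher (Gpnmb, Lgals3 and Cd63) and 0 were 1.5-fold lower, against 7.17% of all genes higher and 13.9% lower. In the chronic phase, 6 of 8 members were above and 2 below SD levels, with a median log2FC of 0.25 (range -0.23 to 1.13) against 0.01 for all 10843 genes (quartiles -0.17 and 0.18). Of the 8, 2 were at least 1.5-fold higher (Ctsk and Gpnmb) and 0 lower, against 5.56% of all genes higher and 7.95% lower.

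**Figure D2:**
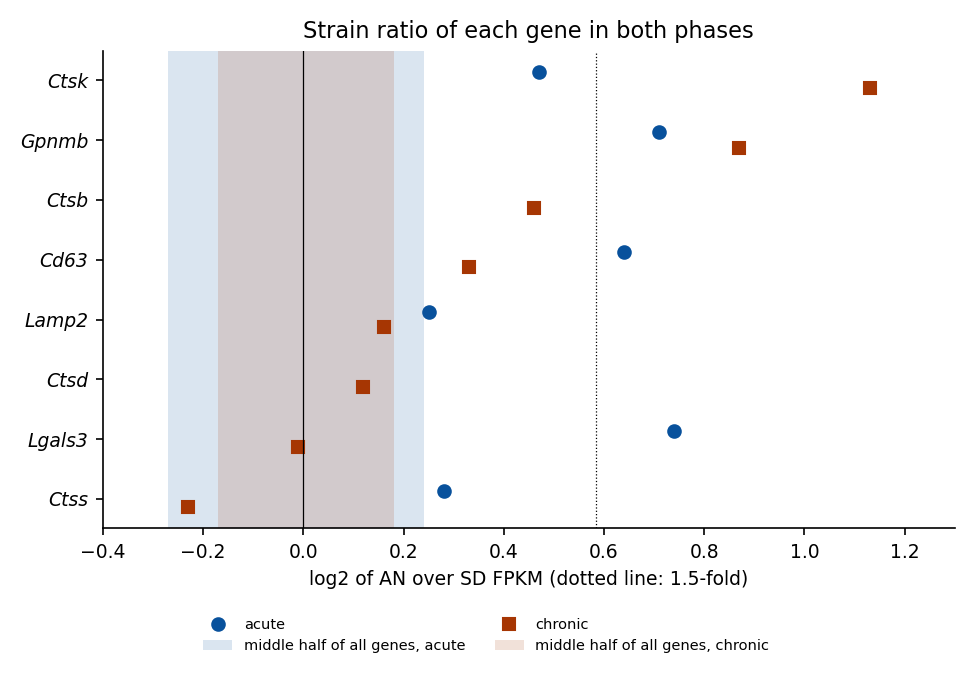
log2FC (AN over SD) of each gene in the acute (circles) and chronic (squares) phase, with the band from the 25th to the 75th percentile of all genes in each phase and a dotted line at 1.5-fold. In the acute phase Lgals3, Gpnmb and Cd63 lie beyond the dotted line, and in the chronic phase Ctsk and Gpnmb; the chronic values of Lgals3 and Ctss lie at or below 0.

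Gpnmb (RGD:71008, RN4 chr4:77161352-77182624) was the member that passed 1.5-fold in both phases. This membrane glycoprotein is made by macrophages under lysosomal stress and by osteoclasts. Levels at 1 week were 3477 (SD) and 5699.7 (AN) FPKM, and levels at 8 weeks 1967 (SD) and 3583 (AN). Both AN values were above the SD value of the same phase, by 1.64-fold (log2FC 0.71) and 1.82-fold (log2FC 0.87). These ratios exceeded those of 95.4% and 97.6% of all genes. At 8 weeks the level was 0.566 of the 1-week level in SD rats and 0.629 in AN rats.

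Lgals3 (RGD:69356, RN4 chr15:23327071-23339006) encodes galectin-3, a sugar-binding protein of activated macrophages that gathers at damaged lysosomes. At 1 week it stood at 2230.1 (SD) and 3724 (AN) FPKM, and at 8 weeks at 2539.9 (SD) and 2517 (AN). AN rats thus stood 1.67-fold above SD rats at 1 week (log2FC 0.74, above 95.9% of genes), and the groups were nearly level at 8 weeks, at 0.991-fold (log2FC -0.01). Between the phases the SD value was 1.14-fold higher at 8 weeks, while the AN value was 0.676 of its acute level.

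Cd63 (RGD:62080, RN4 chr7:2208659-2211323), a tetraspanin of late endosomes, lysosomes and exosomes, was measured at 2192 (SD) and 3416 (AN) FPKM at 1 week, and at 1646 (SD) and 2069 (AN) at 8 weeks. The acute ratio was 1.56-fold (log2FC 0.64), just past the 1.5-fold limit, and it was below that limit (log2FC 0.52) when both strains were scaled to the same summed FPKM. The chronic ratio was 1.26-fold (log2FC 0.33).

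Ctsk (RGD:61810, RN4 chr2:190394854-190405668) was the member with the highest ratio in the chronic phase. The 1-week values were 269 (SD) and 371 (AN) FPKM, and the 8-week values 206 (SD) and 449.9 (AN). AN exceeded SD rats 1.38-fold in the acute phase (log2FC 0.47) and 2.19-fold in the chronic phase (log2FC 1.13, above 98.7% of genes). Of the 6 members with all values it was the one whose highest level was in chronic AN rats, while the other 5 were highest in acute AN rats. From 1 to 8 weeks Ctsk was 1.21-fold higher in AN rats and 0.765-fold in SD rats.

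Ctss (RGD:621513, RN4 chr2:190425290-190466877) lies next to Ctsk, with 19621 bases between the listed loci. It stood at 1496 (SD) and 1814 (AN) FPKM at 1 week, and at 1588 (SD) and 1351 (AN) at 8 weeks. It was the member with the lowest chronic ratio: at 1 week log2FC was 0.28 and at 8 weeks -0.23, and 19.7% of genes had a lower chronic ratio. Ctsk was 18.0% and 20.5% of the Ctss level in acute SD and AN rats, and 12.9% and 33.3% in the chronic groups.

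Ctsb had the highest level of the set in each of the 3 groups where it was estimated. Ctsd came next in acute SD rats, while at 8 weeks Lgals3 exceeded it in SD rats and both Gpnmb and Lgals3 did in AN rats. Ctsb (RGD:621509, RN4 chr15:42402829-42423701), a cysteine protease, was at 5681 FPKM in SD rats at 1 week, and at 3378 (SD) and 4644 (AN) at 8 weeks, a chronic ratio of 1.37-fold (log2FC 0.46, above 91.5% of genes). Ctsd (RGD:621511, RN4 chr1:202619669-202631545) was at 4002 FPKM in SD rats at 1 week, and at 2197 (SD) and 2381 (AN) at 8 weeks, a chronic ratio of 1.08-fold (log2FC 0.12). In SD rats both were lower at 8 weeks, at 0.595 and 0.549 of their 1-week levels. Lamp2 (RGD:2990, RN4 chrX:6908285-6951772), a membrane protein needed for fusion of lysosomes with autophagosomes, was at 394 (SD) and 468 (AN) FPKM at 1 week and at 369.6 (SD) and 414 (AN) at 8 weeks, with a log2FC of 0.25 and 0.16. Its highest group was 1.27-fold above its lowest, the narrowest range of the 6 members estimated in every group, and that of Gpnmb was 2.90-fold.

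Set against each other, the acute log2FC exceeded the chronic one in 4 of the 6 members with both (Lgals3 by 0.75, Ctss by 0.51, Cd63 by 0.31 and Lamp2 by 0.09). It was below the chronic one in Gpnmb (-0.15) and Ctsk (-0.66). The median difference was 0.20, beside -0.03 over 10381 genes, of which 46.5% had the higher acute ratio. Between 1 and 8 weeks, 4 of 6 members were lower in SD rats and 5 of 6 in AN rats, with median log2 ratios of -0.24 and -0.50, beside 0.00 and 0.01 over the same 10381 genes.

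Macrophage markers were compared by fold alone, with no test. As background for this and the later lists, 7.17% of all genes were at least 1.5-fold higher and 13.9% lower in acute AN rats. In the chronic phase these shares were 5.56% and 7.95%. Of 17 macrophage and microglia markers 10 were matched, and 8 were at least 1.5-fold higher in acute AN rats (median log2FC 0.80, 0 lower), and they summed to 2859 (SD) and 4628 (AN) FPKM. In the chronic phase 2 of 10 were higher (Mrc1 and Cd163, receptors of scavenging macrophages, log2FC 1.24 and 1.84), with a median of 0.35 and sums of 1613 and 1992. In that phase 4 of the 10 were below SD levels, which were Tmem119 (log2FC -0.36), Cx3cr1 (-0.24), Csf1r (-0.12) and Cd14 (-0.03). None of the 10 was at 0 in any group. Fibroblasts can also make Ctsk: of 8 fibroblast markers 5 were higher in the acute phase (median 0.61, and 3 with both strains scaled to the same summed FPKM) and 4 in the chronic phase (median 0.58), with sums of 4099 and 6520.1 FPKM and then 1767 and 2685. The part of either cell type in the members' ratios was not tested.

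Cd68, a lysosomal membrane protein of macrophages that was not used to choose the members, gave a scale within each group. It was at 1115 (SD) and 1757 (AN) FPKM at 1 week and at 606 (SD) and 841 (AN) at 8 weeks (log2FC 0.66 and 0.47). In the acute phase the log2FC of Gpnmb, Lgals3 and Cd63 was within 0.08 of that of Cd68, while that of Ctsk was below it by -0.19, of Ctss by -0.38 and of Lamp2 by -0.41. In the chronic phase Ctsk (by 0.66) and Gpnmb (by 0.39) exceeded the Cd68 ratio, Ctsb stood at -0.01 from it, and Ctss (-0.71), Lgals3 (-0.49), Ctsd (-0.36), Lamp2 (-0.31) and Cd63 (-0.14) were below it. Per unit of Cd68, Ctsk at 8 weeks was 0.339 (SD) and 0.535 (AN).

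**Figure D3:**
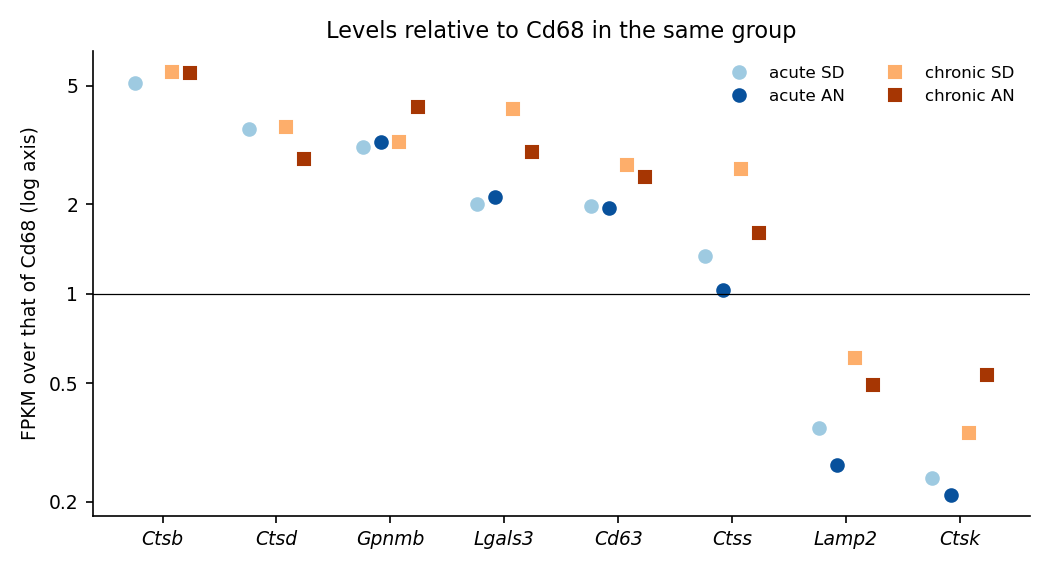
FPKM of each gene over the FPKM of Cd68 in the same group (log axis), 1 point per group of 3 rats. In the chronic phase (squares) the AN point lies above the SD point for Gpnmb and Ctsk, while for Ctss, Lgals3, Ctsd, Lamp2 and Cd63 it lies below.

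The wider list of cathepsins and their inhibitors held 17 symbols and 8 matched genes, of which 7 had an acute and 8 a chronic ratio. Of these, 2 were higher and 1 was lower in acute AN rats (median log2FC 0.34), and 1 was higher in the chronic phase (median 0.20). Without the filter on low FPKM 2 were lower in acute AN rats, the added one being Ctsw at 1.81 (SD) and 0.527 (AN) FPKM. Ctsl, another papain-type protease, was at 1372 (SD) and 2426 (AN) FPKM at 1 week (log2FC 0.82) and at 758 (SD) and 1104 (AN) at 8 weeks (log2FC 0.54). Cst6, a secreted inhibitor of cathepsins and legumain, was higher in both phases, with a log2FC of 1.33 (10.9 to 27.3 FPKM) and 1.45 (12.3 to 33.8 FPKM). Cst3, the abundant secreted inhibitor cystatin C, was the one lower: it was at 6035 (SD) and 3711 (AN) FPKM at 1 week (log2FC -0.70) and at 6779 (SD) and 6478 (AN) at 8 weeks (log2FC -0.07).

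Enzymes that break down sugars, sulfates and lipids in the lysosome followed. Of 37 symbols listed as lysosomal hydrolases 14 were matched, so most were not seen. Of the 14, 2 were higher and 1 lower in each phase, with medians of 0.17 and 0.20, and with both strains scaled to the same sum 1 was higher at 1 week. Naglu, which degrades heparan sulfate, was higher in both (log2FC 0.64 and 0.76), Neu1, a sialidase, in the acute phase (0.74) and Arsb, a sulfatase acting on dermatan sulfate, in the chronic phase (0.78). Galns, a sulfatase for keratan sulfate, was lower in both (log2FC -0.95 and -0.83). The most abundant of the list were Gm2a, a lipid-lifting cofactor (log2FC -0.36 and 0.33), and Hexa, a hexosaminidase subunit (0.31 and 0.58).

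Of 16 lysosomal membrane and transport proteins matched among 23, 2 were higher and 1 lower in the acute phase (median 0.16), or 1 higher and 3 lower with both strains scaled to the same sum, and 1 was higher in the chronic phase (median 0.20). Slc11a1, the metal transporter of phagosomes, was higher in both, at 21.8 (SD) and 42.0 (AN) FPKM at 1 week (log2FC 0.94) and at 20.6 (SD) and 50.5 (AN) at 8 weeks (log2FC 1.29). The second acute gene was Cd68, and Laptm4b was the one lower (log2FC -0.62). The general lysosome protein Lamp1 had a log2FC of -0.04 and 0.33 and the cholesterol carrier Npc2 of 0.08 and 0.18. Of 9 regulators matched among 12, 1 was higher in each phase, which was Tfec (log2FC 0.64 and 0.61), a macrophage member of the TFEB and MITF family, at 10.6 FPKM or less, and with a pseudocount of 1 or scaling to the same sum it no longer passed. Tfeb itself had a log2FC of 0.34 and 0.18. Grn, the precursor of lysosomal granulins, was at 1016 (SD) and 1496 (AN) FPKM at 1 week (log2FC 0.56) and at 522 (SD) and 613 (AN) at 8 weeks (log2FC 0.23).

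The proton pump that acidifies lysosomes had 1 subunit past 1.5-fold. Of 22 V-ATPase subunits 14 were matched and 13 had a ratio. Of the 13, 1 was higher and 0 lower in each phase, beside 7.17% and 5.56% of all genes higher. The medians were 0.16 and 0.00. Atp6v0d2, a subunit of osteoclasts and certain macrophages, was at 6.19 (SD) and 22.7 (AN) FPKM at 1 week (log2FC 1.88), and at 3.69 (SD) and 38.9 (AN) at 8 weeks, which is 10.5-fold (log2FC 3.40). The most abundant subunit, Atp6v0c, had a log2FC of 0.30 and 0.04.

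Other genes known from osteoclasts, as Ctsk is, were set beside it. Of 11 symbols 6 were matched and 5 had a ratio, and 3 were higher in the acute phase (median log2FC 0.85) and 4 in the chronic phase (median 2.37), with 0 lower in either. In the acute phase 1 was lower with both strains scaled to the same sum or the same upper quartile. These counts include Atp6v0d2. Mmp12, the macrophage elastase, was at 53.1 (SD) and 96.0 (AN) FPKM at 1 week (log2FC 0.85) and at 11.3 (SD) and 76.5 (AN) at 8 weeks (log2FC 2.76). Oscar, an activating receptor, was at 4.92 (SD) and 20.01 (AN) FPKM at 1 week and at 1.12 (SD) and 5.80 (AN) at 8 weeks (log2FC 2.02 and 2.37). Tm4sf19 was nearly level at 1 week, at 4.34 (SD) and 4.74 (AN) FPKM (log2FC 0.13), and was at 2.78 (SD) and 13.2 (AN) at 8 weeks (log2FC 2.24). Tnfrsf11a, the receptor for the osteoclast-forming signal RANKL, was at 13.1 (SD) and 8.88 (AN) FPKM at 1 week and at 12.05 (SD) and 12.6 (AN) at 8 weeks (log2FC -0.56 and 0.06). Calcr, the calcitonin receptor, was at 0.0436 FPKM or less in every group.

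Genes with which phagocytes handle lipid and debris numbered 20, with 13 matched and 12 with a ratio, of which 4 were higher and 1 lower in the acute phase (median 0.53) and 4 were higher in the chronic phase (median 0.38). Fabp4, a fatty acid carrier, and Lpl, a lipase, were higher in both phases (log2FC 1.22 and 1.62, and 1.06 and 0.79). Hmox1, which degrades heme, was at 293 (SD) and 907 (AN) FPKM at 1 week (log2FC 1.63) and at 126 (SD) and 129 (AN) at 8 weeks (log2FC 0.03). Abcg1, which exports cholesterol, was higher in the acute phase (0.64), and the integrin Itgax and the ferritin chain Ftl1 in the chronic phase (1.24 and 0.79). Lgals1, which encodes galectin-1, was lower in acute AN rats, at 1696 (SD) and 1117 (AN) FPKM (log2FC -0.60), and Tyrobp, a signalling adaptor, had a log2FC of 0.47 and 0.01.

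Relatives of Cd63 and Lgals3 were counted in the same way. Of 15 other tetraspanins and galectins 9 were matched and 8 had a ratio, of which 1 was higher and 3 were lower in acute AN rats (median -0.24), and 0 passed in either direction in the chronic phase (median 0.06). Cd53, a tetraspanin of leukocytes, was the one higher (log2FC 0.64, not past 1.5-fold with both strains scaled to the same sum), and the 3 lower were Tspan7 at 203 (SD) and 102 (AN) FPKM, Cd9 (log2FC -0.61) and Lgals1. The abundant tetraspanin Cd81 had a log2FC of -0.28 and 0.12.

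**Figure D4:**
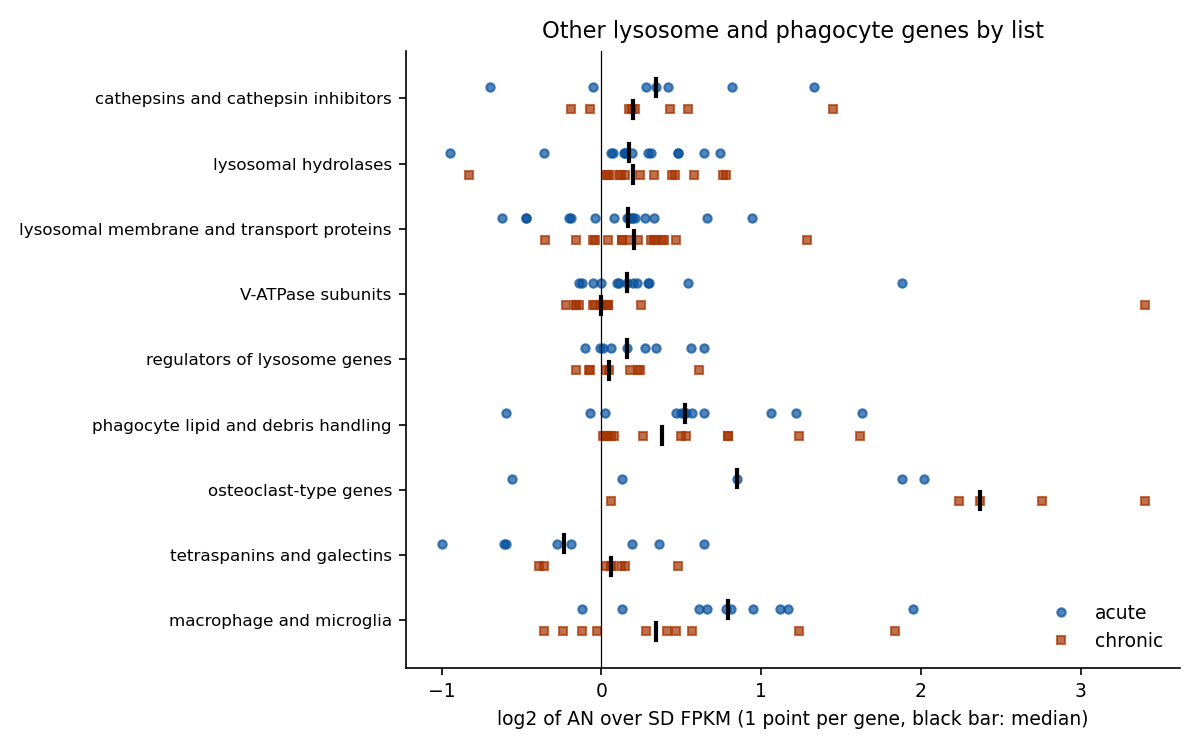
log2FC (AN over SD) of single genes in 8 lists of lysosome, phagocyte and related genes and in the macrophage markers, 1 point per gene in the acute (circles) and chronic (squares) phase, with a black bar at each median. The chronic medians lie between 0.00 and 0.38 except for the osteoclast-type genes at 2.37, and the single V-ATPase subunit at 3.40 is Atp6v0d2.

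The genes whose levels over the 4 groups ran most like those of Gpnmb were Plbd1, Il1r1, Myof, Flrt2 and Tgfbi, with distances between centred log2 profiles of 0.0926 to 0.137 among 10381 genes. With 4 pooled values per gene this likeness is a description. Plbd1, a phospholipase-like lysosomal protein, was at 107 (SD) and 170.2 (AN) FPKM at 1 week and at 57.4 (SD) and 101 (AN) at 8 weeks. Tgfbi, a matrix protein, was at 88.2 (SD) and 155 (AN), then 51.2 (SD) and 103 (AN) FPKM.

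Markers of the remaining cell types differed as follows. Of 7 neuron markers 7 were lower in AN rats in both phases (median log2FC -3.16 and -1.95), and of 7 oligodendrocyte markers 7 were lower in the acute phase (median -0.94) and 0 in the chronic phase (median -0.39). Of 4 astrocyte markers 3 were lower in the acute phase (median -1.58), and of the 3 with a chronic ratio 0 were (median -0.27). Of 6 Schwann cell markers 5 were lower in the acute phase (median -1.15), and 1 was higher and 1 lower in the chronic phase (median 0.28). Of 2 endothelial markers 0 were past 1.5-fold at 1 week and 1 was at 8 weeks. Of 9 T cell markers, those above 1 FPKM in both strains numbered 3 at 1 week and 4 at 8 weeks, of which 1 was higher in each phase, 0 were lower at 1 week and 1 was lower at 8 weeks. This filter leaves out genes that are low in AN rats, and without it 6 were at least 1.5-fold lower at 1 week and 2 at 8 weeks. The 9 summed to 115 (SD) and 245 (AN) FPKM at 1 week, most of it Cd8a, and to 59.9 (SD) and 50.8 (AN) at 8 weeks. Of 3 neutrophil markers 1 was higher in each phase (in the acute phase 0 under each rescaling), and among red cell markers 1 of 1 was lower in the acute and 1 of 2 higher in the chronic phase. Without the filter on low FPKM all 3 matched red cell markers were lower at 1 week, and of 6 neutrophil markers matched 2 were higher and 1 lower at 1 week and 3 were higher at 8 weeks.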

How the data were processed

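RNA-seq of 12 rats in 4 groups of 3, assigned by the strain and time point in the labels, was used. The authors removed adapter sequence with cutadapt, found no need for quality trimming and mapped the reads to RN4 with TopHat. Cufflinks, with quartile normalization, gave transcripts, and Cuffdiff set AN against SD rats at each time point. TopHat 1.5.0 and Cufflinks 0.0.6 are the versions in the submitters' processing notes. The FPKM values the authors deposited are 1 per group and gene, in 1 table per phase. The tables also hold the authors' own fold changes, test statistics, p-values and q-values, which were not used. The depth behind each gene is not given by an FPKM, and no interval was computed.

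From the FPKM, log2 ratios, counts past 1.5-fold where both groups reached 1 FPKM and list medians were computed with Python 3.11.15, numpy 2.4.6 and pandas 2.3.3, and the ratio step was tested on simulated data. Of 17423 identifiers, 60.1% were named: 4636 directly, 5822 by order between named neighbours and 11 by distance to a neighbour. The naming settings were chosen with the held-out accuracy in view. RN4 positions are counted from 1. Promoter windows are RefSeq GRCr8 sequence.

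The members and gene lists were chosen with earlier results of these data known. The genes named are the members, up to 4 genes per list and phase past 1.5-fold with the largest ratios, up to 2 with the highest summed FPKM, Cd68, Lamp1 and Grn, the 5 profiles nearest Gpnmb and defining markers. Ctsw, Tfeb, Tnfrsf11a, Calcr, the T cell markers named, the macrophage markers other than Cd68 and the genes with failed estimates were added after their values were seen. The alternatives were a 2-fold limit, 3 rescalings, a pseudocount of 1, no filter on low FPKM and names that rest on neither order nor distance.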

Additional observations from a re-analysis of the deposited data

How the results depend on the processing

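The 6 acute and 8 chronic log2 ratios of the members kept their direction under the 3 rescalings and the pseudocount. A 2-fold limit in place of 1.5-fold left 0 members higher in the acute and 1 (Ctsk) in the chronic phase. Rescaling to the same summed FPKM lowered the acute median of the members from 0.55 to 0.43 and that of all genes from 0.02 to -0.10, and it left 2 acute members past 1.5-fold, since Cd63 was then at 0.52. With Ctsb alone, whose identifier was known and whose name rests on neither order nor distance, the chronic median was 0.46. Leaving out Ctsb and Ctsd, chosen after the data were seen, gave 0.25, as with all 8. Among single values and list counts, 56 of 574 recomputed values moved, and 50 of the 56 were counts of a list. A list count was labelled only as same or moved, so a reversal could not be recorded for it. Leaving out each rat was not run, and no paired value exists: No paired analysis was possible because the tables hold 1 value per group and the labels give the rats no shared replicate numbers. What the depth of each gene limits is unknown from FPKM.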
